A study of Mus musculus with 48 samples.

Results

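RNA synthesis was compared between opposite phases of the circadian clock in control fibroblasts. The measure was intron RNA among newly made transcripts, in 4 libraries of the 32, 34, 36 and 38 h time points and 4 of 24, 26, 44 and 46 h. These 8 libraries of 48 in the series were set by line, RNA type and time, with earlier results of these data known. Both windows have a mean time of 35 h, so that a straight drift over the course falls out of the difference. Of 11313 gene symbols, 10679 had a mean of at least 0.1 intron RPKM over the 8 libraries and were tested.

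The cells were NIH 3T3, a mouse fibroblast line grown with 10% fetal bovine serum, carrying a control hairpin (shCTRL) or a hairpin against Bmal1 (shBmal1; the tables list this gene as Arntl). All cultures of both genotypes had been synchronised in medium with 50% horse serum for 2 h. Each time point was split into total RNA and RNA labelled with the uridine analogue 4sU, biotinylated and pulled down on streptavidin from 30 ug of RNA. No time point had a second library, so the replicates of a window are 4 time points of 1 line, and every p measures the spread among these libraries, which may be technical. The labels do not give the length of the 4sU pulse. The deposited unit is RPKM, a read density that allows for feature length and library depth. Each library was scaled to the median ratio, and a log2 difference is 32 to 38 h minus 24, 26, 44 and 46 h of log2(scaled RPKM + 0.02), which understates the change of low genes.

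In the clock of mammalian cells, the CLOCK and BMAL1 proteins bind E-box sequences and activate the genes of their own repressors, PER and CRY. They also activate the REV-ERB receptors, which repress Bmal1 (Arntl) and Nfil3 through RRE sequences, and the D-box activators DBP and TEF, which NFIL3 opposes. Fibroblasts keep such a clock in culture, and a serum pulse sets the cells to a common phase. Introns are removed soon after transcription, so intron RNA in a 4sU pull-down follows synthesis more closely than exon RNA does.

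Depth was recovered from the steps of the deposited RPKM. It was 60.5 to 69.9 M reads in the libraries at 24, 26, 44 and 46 h and 48.9 to 62.1 M in those at 32 to 38 h. Gene introns held 34.0 to 35.7% and 33.4 to 34.3% of those reads. As a check of the labels, total exon RPKM of Arntl at 32 to 38 h ran from 14.5 to 17.2 in the control line and from 3.96 to 5.00 under the Bmal1 hairpin. At 24, 26, 44 and 46 h the lines overlapped, at 1.29 to 4.02 in the control line and 2.36 to 4.22 in the other. All 8 fibroblast markers passed the filter, among them the intermediate filament gene Vim and the matrix genes Fn1, Col1a1 and Col3a1. Of the markers of other cell types, 2 of 5 leukocyte, 1 of 5 epithelial and 1 of 4 adipocyte genes passed, and no endothelial, neural or muscle gene did. Cd68 (0.04), Krt14 (-0.14) and Plin4 (0.36), with limma adjusted p of 0.893, 0.815 and 0.0784, were not called. In these bulk samples, fewer cells making a transcript and less of it made per cell cannot be told apart.

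Stretches of promoter are shown for 6 clock genes to let the reader see the elements named above. They come from the RefSeq promoter table (GRCm38.p6), which gives 250 bases before and 50 after a listed start. A listed start can lie inside the gene span given below, as those shown for Nfil3, Arntl and Per1 do. Capitals mark the RRE in Nfil3 and Arntl (TAGGTCA or its reverse complement), the E-box (CACGTG) in Per1, Tef and Ciart, and the D-box (TTATGNAA) in Per3. Each is 5′ to 3′ on the gene's strand.
Nfil3, chr13:52981040-52981099, minus strand, 60 to 1 bases before the start: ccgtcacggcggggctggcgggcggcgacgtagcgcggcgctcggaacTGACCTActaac
Arntl, chr7:113207537-113207560, plus strand, 27 to 50 bases after the start: aaagTAGGTCAgggacggaggtgc
Per1, chr11:69098759-69098818, plus strand, 190 to 131 bases before the start: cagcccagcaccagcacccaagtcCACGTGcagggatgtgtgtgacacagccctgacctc
Tef, chr15:81802523-81802582, plus strand, 150 to 91 bases before the start: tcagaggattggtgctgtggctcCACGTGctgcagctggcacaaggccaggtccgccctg
Ciart, chr3:95882259-95882348, minus strand, 120 to 31 bases before the start: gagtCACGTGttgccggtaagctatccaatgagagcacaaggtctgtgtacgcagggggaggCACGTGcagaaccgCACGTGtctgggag
Per3, chr4:151044806-151044880, minus strand, 215 to 141 bases before the start: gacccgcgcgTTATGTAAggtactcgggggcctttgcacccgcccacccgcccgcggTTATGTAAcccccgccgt

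Clock genes led the difference between the windows in both directions. Synthesis of Arntl and Nfil3 was highest at 32 to 38 h, and that of Dbp, Tef, Per2, Nr1d2, Per3, Per1, Bhlhe40 and Cry2 was lowest there. Of 17 core clock genes tested, 2 rose and 8 fell, against 0.655% and 0.412% of all 10679 genes (70 and 44 genes at a limma adjusted p under 0.05, 1.07% in both directions). Their 4 values in one window lay wholly above those of the other in 2 and wholly below in 9 of the 17, against 4.2% and 4.12% of all genes. The median of the 17 was -0.62, and that of all genes 0.00.

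Arntl, the gene of BMAL1, lies on chromosome 7 from 113178471 to 113314126 (GRCm38.p6) and was read from 1689 to 8521 intron reads per library. Its scaled intron RPKM was 0.236, 0.389, 0.303 and 0.288 at 24, 26, 44 and 46 h and 1.32, 1.33, 1.24 and 1.03 at 32, 34, 36 and 38 h. The 32 to 38 h window was 3.88-fold higher (log2 difference 1.96 ± 0.14 SE, limma adjusted p = 0.000937), with no overlap. The libraries left out of the test lay in between, at 0.565 and 1.00 at 28 and 30 h and 0.866 and 0.537 at 40 and 42 h.

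The D-box repressor gene Nfil3 (chromosome 13, 52967209 to 52982878) had nearly the same course. Its intron RPKM was 0.185, 0.316, 0.269 and 0.232 at 24, 26, 44 and 46 h and 0.937, 1.00, 0.926 and 0.814 at 32, 34, 36 and 38 h. The difference was 1.82 ± 0.15 (limma adjusted p = 0.00159), and the windows did not overlap. Clock, the gene of the partner protein of BMAL1, stayed between 0.550 and 0.644 in all 8 libraries (0.09 ± 0.05, limma adjusted p = 0.431), and Arntl2, a paralog of Arntl, was at 0.07 ± 0.10.

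**Figure D1:**
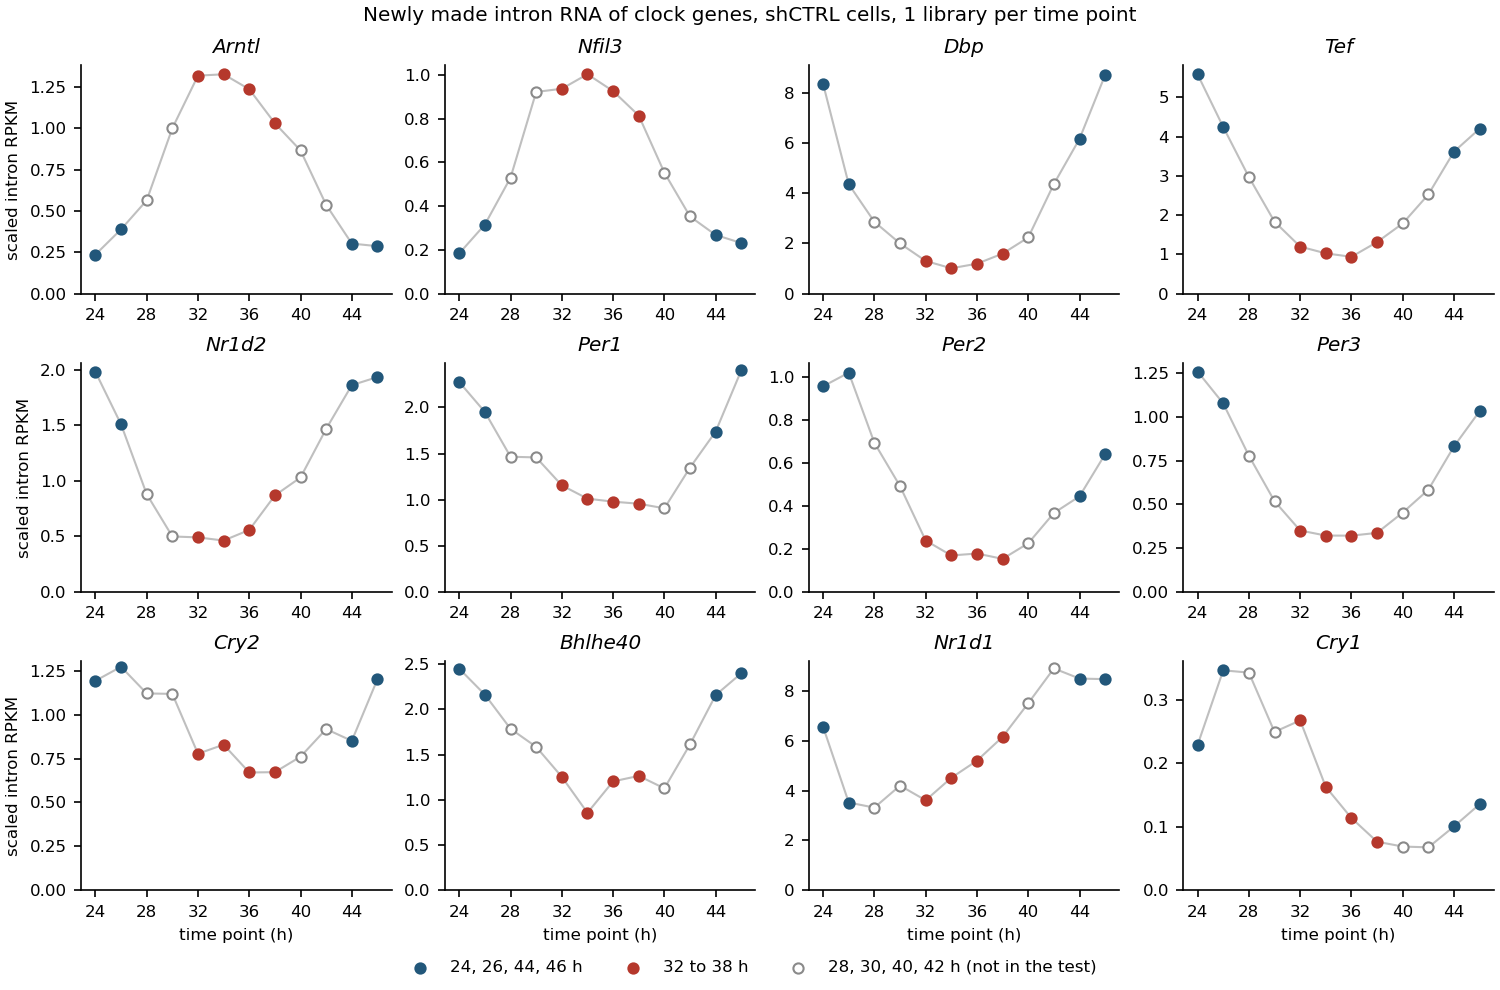
Scaled intron RPKM of newly made RNA (y axis, each panel from 0) against the time point in h (x axis) for 12 clock genes in shCTRL cells, 1 library per point. Red points are the 32 to 38 h window, blue points 24, 26, 44 and 46 h, and open points the 4 libraries not in the test. Arntl and Nfil3 are highest in the red window, the next 8 genes are lower in it than at every blue point, and the windows of Nr1d1 and Cry1 overlap.

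The D-box activators went the other way. Dbp (chromosome 7, 45705100 to 45710203) had 8.34, 4.35, 6.16 and 8.70 intron RPKM at 24, 26, 44 and 46 h and 1.30, 1.01, 1.20 and 1.60 at 32, 34, 36 and 38 h. It fell 5.20-fold (-2.38 ± 0.24, limma adjusted p = 0.0103; 0.0576 without the 36 h library). Tef (chromosome 15, 81802673 to 81826863) had 5.58, 4.24, 3.62 and 4.20 against 1.20, 1.03, 0.941 and 1.32. That is a fall of 3.87-fold (-1.95 ± 0.13, limma adjusted p = 0.000562). In both genes every value at 32 to 38 h lay below every value of the other window.

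The period genes, whose proteins inhibit CLOCK and BMAL1, all fell at 32 to 38 h. Per2 (chromosome 1, 91415977 to 91459351) had 0.956, 1.02, 0.445 and 0.641 intron RPKM at 24, 26, 44 and 46 h and 0.239, 0.169, 0.179 and 0.154 at 32, 34, 36 and 38 h (-1.88 ± 0.13, limma adjusted p = 0.000562). The windows did not overlap, but the first day stood higher than the second: the difference was -2.31 against 24 and 26 h alone and -1.45 against 44 and 46 h alone.

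Per3 (chromosome 4, 150997018 to 151044707) had 1.26, 1.08, 0.832 and 1.03 against 0.351, 0.322, 0.322 and 0.338 (-1.59 ± 0.08, limma adjusted p = 6.76e-05). Its 4 values at 32 to 38 h were within 0.333 ± 0.0140 (SD, n = 4), a flat trough. Per1 (chromosome 11, 69095108 to 69109965) had 2.27, 1.95, 1.74 and 2.40 against 1.15, 1.01, 0.978 and 0.956, a 2.01-fold fall (-1.01 ± 0.11, limma adjusted p = 0.00342).

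The cryptochrome genes encode the partners of the PER proteins in the same repressor complex. Cry2 had 1.19, 1.27, 0.851 and 1.20 against 0.778, 0.830, 0.671 and 0.673 (-0.59 ± 0.11, limma adjusted p = 0.0454). The 44 h value was close to the highest of the other window, and the call was lost without any 1 of the other 7 libraries (adjusted p 0.0660 to 0.148). Cry1 had 0.229, 0.347, 0.10 and 0.135 against 0.268, 0.163, 0.114 and 0.0762, so its windows overlapped (-0.33 ± 0.28, limma adjusted p = 0.579). It was lower at 32 to 38 h than at 24 and 26 h (-0.90) and higher than at 44 and 46 h (0.24), with the lowest values at 40 and 42 h (0.0686 and 0.0673).

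REV-ERB beta, the Nr1d2 product, represses Arntl. The gene (chromosome 14, 18204056 to 18239106) had 1.98, 1.51, 1.86 and 1.94 against 0.491, 0.462, 0.558 and 0.869 (-1.62 ± 0.19, limma adjusted p = 0.0129). The windows did not overlap; without the 36 h or the 46 h library the adjusted p was 0.0590 and 0.0571. Nr1d1, the gene of REV-ERB alpha, was not called in introns. It had 6.57, 3.52, 8.52 and 8.49 against 3.61, 4.52, 5.21 and 6.17 (-0.42 ± 0.21, limma adjusted p = 0.362). Its end overlaps Thra, a thyroid hormone receptor gene on the opposite strand, by 1075 bases, and no source says whether the authors counted by strand. Thra introns were at 0.25 ± 0.11 (limma adjusted p = 0.288). Rora, an activator that competes for the same sites, was at -0.06 ± 0.08.

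Among the E-box repressors, Bhlhe40 (DEC1; chromosome 6, 108660629 to 108666925) had 2.45, 2.16, 2.16 and 2.40 against 1.25, 0.855, 1.20 and 1.26. It fell by 1.01 ± 0.13 (limma adjusted p = 0.0107; 0.0571 without the 46 h library) with no overlap. Bhlhe41 (DEC2) and Ciart, a repressor of CLOCK and BMAL1, were read from only 19 to 73 and 27 to 92 intron reads per library. They were at -0.73 ± 0.24 and -0.62 ± 0.22 and did not pass the test (limma adjusted p of 0.214 and 0.239).

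Of the 2 lists that act around the core loop, only the clock outputs held calls. None of 9 kinase and ligase genes of the clock was called: they ranged from -0.12 (Csnk1a1, a casein kinase) to 0.05 (Btrc, a ubiquitin ligase subunit), and 0 had an unadjusted p under 0.05. Of 20 clock outputs, 0 rose and 2 fell, against 0.655% and 0.412% of all genes, and the list median was -0.13. An unadjusted limma p under 0.05 was found in 9 of the 20, against 1802 of all 10679 genes. Their values at 32 to 38 h lay wholly above the other window in 1 and wholly below in 4, against 4.2% and 4.12% of all genes. The 2 called were Tspan4, a tetraspanin gene (-0.69 ± 0.08, limma adjusted p = 0.00556), and Pfkfb3, a regulator of glycolysis (-0.37 ± 0.07, 0.0426). Wee1, the mitotic inhibitor kinase (-0.57 ± 0.13), Klf11 (-0.37), Tsc22d3 (-0.34) and the cell cycle inhibitor Cdkn1a (0.29) missed the threshold, with limma adjusted p of 0.0973, 0.0748, 0.0979 and 0.0748. Nampt, the NAD salvage enzyme gene, was at -0.09 and the deubiquitinase gene Usp2 at 0.15.

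Outside the clock, the genes named here are those with the largest differences among genes that were called and whose windows did not overlap. Mmp11, a matrix metalloproteinase gene (chromosome 10, 75923221 to 75932502), had 7.44, 7.83, 10.8 and 10.7 against 16.7, 19.3, 19.9 and 19.6 intron RPKM (1.06 ± 0.06, limma adjusted p = 6.76e-05). Spon2, which encodes the matrix protein spondin 2, had 0.164, 0.193, 0.271 and 0.216 against 0.446, 0.632, 0.652 and 0.719 (1.45 ± 0.13, 0.00161). The windows of both genes stood apart, and both were higher at 44 and 46 h than at 24 and 26 h.

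Adamts4, an aggrecan-cleaving protease gene, had 0.152, 0.187, 0.117 and 0.0640 against 0.376, 0.397, 0.340 and 0.382 (1.46 ± 0.14, limma adjusted p = 0.00224), on 22 to 136 reads per library. Adam17, the sheddase of TNF, rose by 0.68 ± 0.06 (0.00189). Sh3pxd2b, a scaffold protein of podosomes, rose by 0.74 ± 0.09, Prag1 by 0.86 ± 0.10 and Sash1 by 0.67 ± 0.07. Named after their values were seen, the protease genes Adam19 (0.48) and Mmp14 (0.34) were called too. The other ADAM and ADAMTS genes tested were not called and lay on both sides of 0. Among them were Adam8 (0.82), Adamts12 (0.39), Adam9 (-0.01), Adam10 (-0.10) and Adamts6 (-0.37), also named after their values were seen. The other genes among the 12 highest were Chchd10 (1.14 ± 0.20) and the poorly described Gm15501 (0.71 ± 0.10) and Gm16034 (0.69 ± 0.08).

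Mthfd1l, a mitochondrial folate enzyme gene (-0.86 ± 0.11), Riok2, a kinase of ribosome assembly (-0.71 ± 0.10), and Gm5069 (-0.85 ± 0.15, on 8 to 36 reads per library) were among the 12 lowest with the clock genes above and Tspan4.

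**Figure D2:**
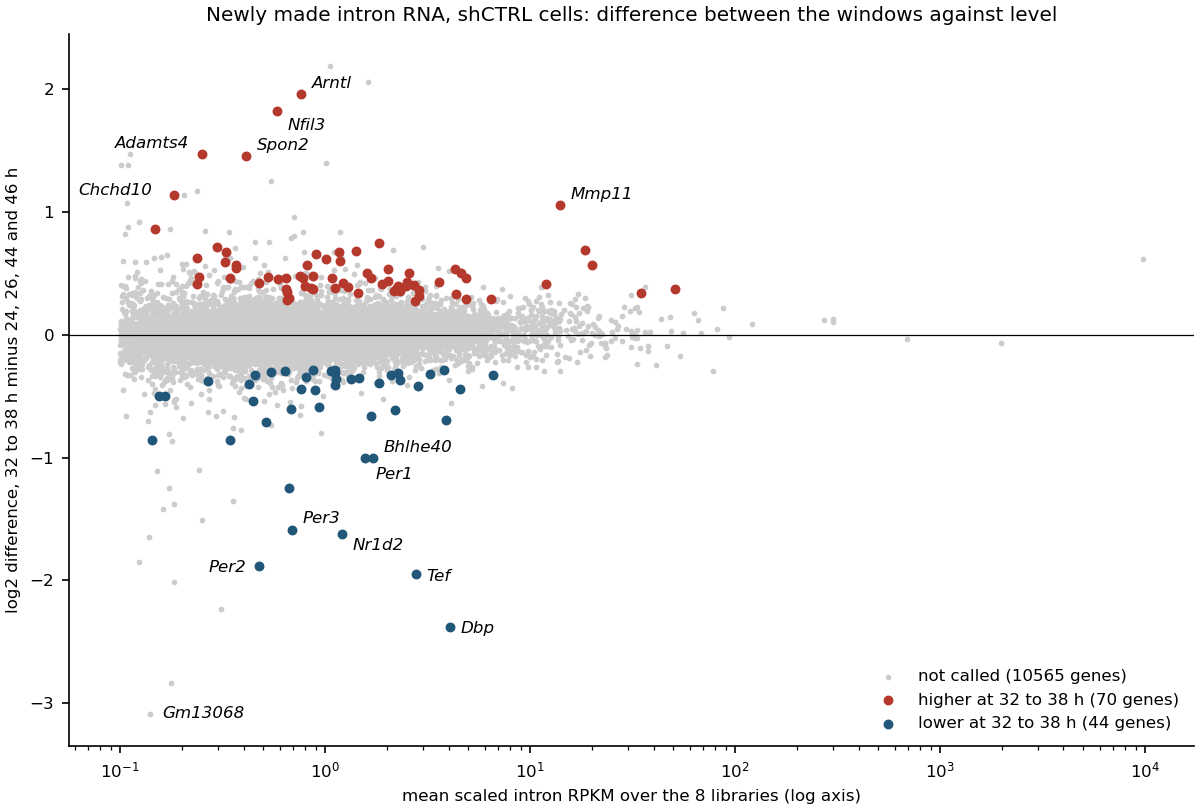
Log2 difference in intron RPKM between the windows (y axis) against the mean scaled intron RPKM of the 8 libraries (x axis, log scale) for 10679 genes, 1 point each. The 70 genes called higher at 32 to 38 h are red and the 44 called lower are blue; grey genes such as Gm13068 (-3.08, adjusted p = 0.0823) can lie further out without being called.

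The sizes were moderate. The median of the 70 higher genes was 0.46 and that of the 44 lower genes -0.43, and 6 and 8 genes passed 1 on the log2 scale. The windows did not overlap in 104 of the 114. Of all genes, 4.2% had all values at 32 to 38 h above the other window and 4.12% had all below. The calls rest on the same values, so the 104 are no separate support. At an unadjusted p under 0.05 there were 1802 genes. The count of 114 rests on each library: it was 59 without 26 h, 44 without 32 h, 42 without 34 h, 47 without 36 h, 67 without 38 h and 41 without 46 h. It was 100 without 24 h and 86 without 44 h. In all 8 of these fits 25 genes were called, 17 higher and 8 lower. These 25 include Arntl, Nfil3, Mmp11, Spon2, Adamts4, Saa3, Col4a1 and Col4a2 among the higher and Per1, Per2, Per3, Tef, Mthfd1l, Tspan4 and Coq10b among the lower; Coq10b was named after its values were seen. With unscaled RPKM, which move the all-gene median to -0.04, the split was 54 higher and 71 lower.

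Extracellular matrix genes rose in 5 and fell in 0 of 25 tested, against 0.655% and 0.412% of all genes. The median of the list was 0.19, against 0.00 for all genes. The collagen IV genes of the basement membrane, Col4a1 and Col4a2, share a promoter region on chromosome 8 and rose alike. Col4a1 had 0.881, 0.996, 0.956 and 0.930 against 1.44, 1.45, 1.41 and 1.42 (0.60 ± 0.05, limma adjusted p = 0.00161). Col4a2 had 0.726, 0.841, 0.80 and 0.815 against 1.24, 1.26, 1.21 and 1.18 (0.61 ± 0.06, 0.00224). Each gene's windows stood well apart, with little spread within them.

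The collagen I gene Col1a1 (0.41 ± 0.06, limma adjusted p = 0.0225), the fibrillin gene Fbn1 (0.57 ± 0.11, 0.0447) and Lox (0.46 ± 0.08, 0.0281), a collagen cross-linking enzyme, were the other 3. They were called in 3, 1 and 1 of the 8 fits that each left out 1 library. The windows of Lox overlapped, and its difference was 0.76 against 24 and 26 h and 0.16 against 44 and 46 h. The lowest value of the list, -0.50 for the thrombospondin gene Thbs1, was not called; that gene was named after its value was seen.

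Inflammatory and NF-kB genes went both ways, with 2 higher and 2 lower of 17, against 0.655% and 0.412% of all genes. Saa3, an acute phase gene, had 0.426, 0.429, 0.961 and 1.12 against 0.961, 1.05, 1.17 and 1.09 (0.66 ± 0.07, limma adjusted p = 0.00256). The complement gene C3 had 31.5, 32.9, 55.4 and 62.7 against 49.2, 56.6, 59.2 and 61.2 (0.37 ± 0.06, 0.0218). For Saa3 the 44 and 46 h values lay among those at 32 to 38 h, and for C3 the 44 h value lay among them and the 46 h value above all 4. Against that pair alone the differences were 0.04 and -0.07. Neither passed without the straight time line in the model (limma adjusted p of 0.407 and 0.487). Ptgs2, the inducible cyclooxygenase gene (-0.60 ± 0.09, limma adjusted p = 0.0145), and Tlr2, a receptor of bacterial lipoproteins (-0.44 ± 0.07, 0.0266), fell. The windows of Tlr2 overlapped, with a difference of -0.75 against 24 and 26 h and -0.14 against 44 and 46 h.

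In the other lists few genes or none passed. The p53 targets had 1 higher of 18 (Bbc3, a death effector, 0.29 ± 0.05) and glycolysis genes 1 lower of 19 (Pfkfb3). Of all genes, 0.655% were called higher and 0.412% lower. Among ribosomal protein genes, Rpl30 fell by 0.33 ± 0.06. The limma adjusted p of Bbc3 and Rpl30 was 0.0316 and 0.0366, and they were called in 0 and 1 of the 8 fits without 1 library.

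By limma, none was called among 24 G1/S genes (median -0.12; 5 at an unadjusted p under 0.05), 24 G2/M genes (0.09; 6), 22 genes of the unfolded protein response (0.04; 7) or 26 of transcription and splicing (-0.06; 8). The same held for 14 actin and SRF genes (0.06; 1), 20 immediate early (-0.02; 3), 14 heat shock (0.06; 1), 21 cholesterol (-0.03; 2), 21 NRF2 (-0.01; 3) and 34 mRNA decay genes (0.00; 4). Of all 10679 genes, 1802 had an unadjusted limma p under 0.05. The share in the unfolded protein and the transcription and splicing lists was above that of all genes. The members with the smallest limma adjusted p were Mcm5 of the replication helicase (-0.35, 0.0784), Cdc20, an activator of mitotic exit (0.26, 0.0743), the exonuclease gene Xrn2 (-0.35, 0.0678) and Ier3 (-0.40, 0.0896). After them came Prdx1 (-0.21, 0.0945), Dnajb11 (-0.18, 0.151), Ccnt1 (-0.17, 0.160), Rbm3 (-0.26, 0.199), Hmgcs1 (-0.22, 0.209) and Flna (0.16, 0.214).

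**Figure D3:**
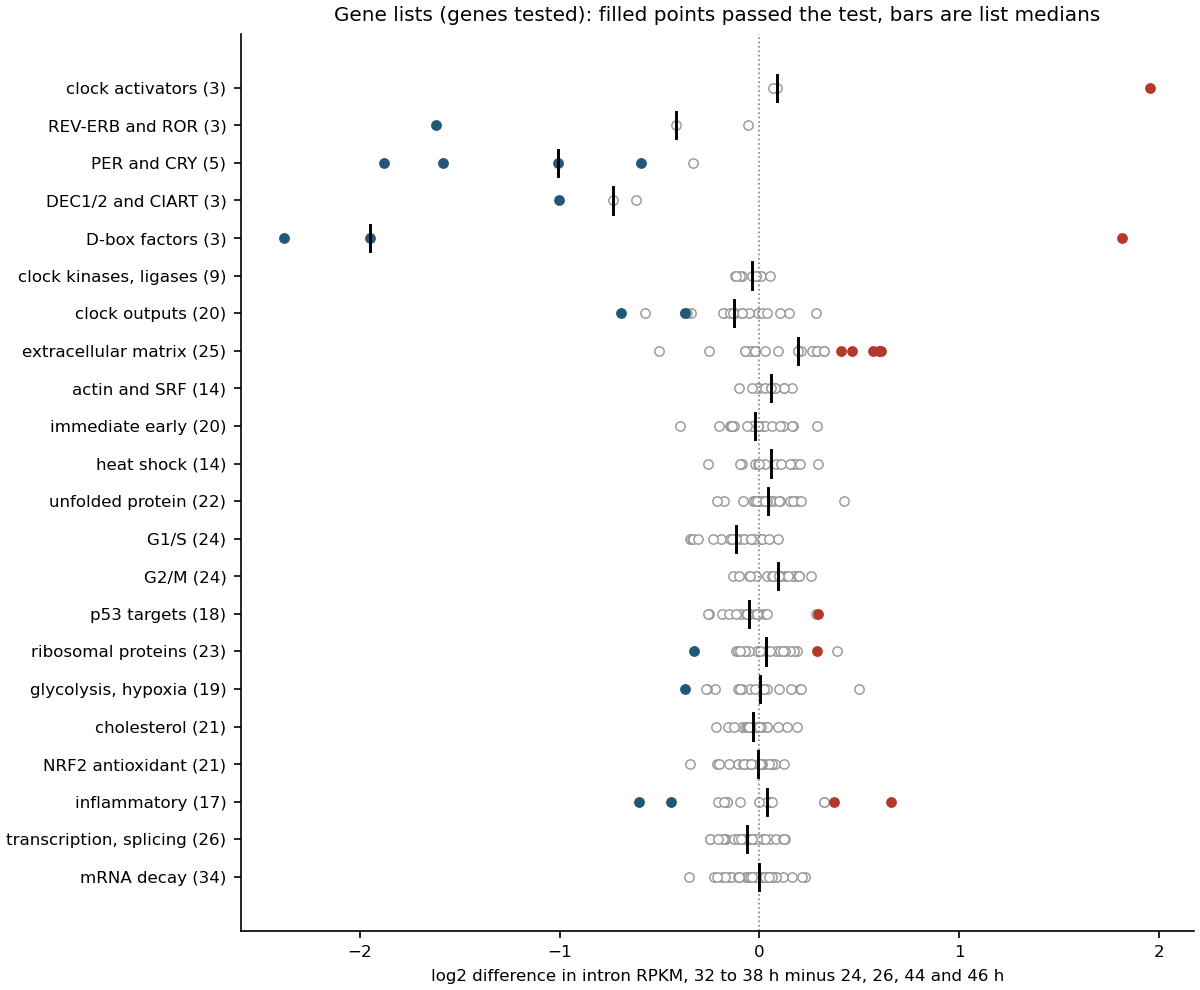
Log2 difference in intron RPKM between the windows (x axis) of every tested gene in 22 lists (rows, with the number tested). Filled points passed the limma test (red higher, blue lower at 32 to 38 h), open points did not, black bars are list medians and the dotted line is the median of all genes. The 5 core clock lists at the top hold 10 filled points, and the matrix list holds 5 on the right.

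Several called genes lie side by side. Within 20 kb there were 7 pairs of called genes by the RefSeq annotation, and both members moved the same way in all 7. The pairs were looked for after the values were seen. Pairs among all genes tested were not counted, so the 7 have no background to be set against. Mmp11 and Chchd10 (1.06 and 1.14) lie 628 bases apart, Per3 and the SNARE gene Vamp3 (-1.59 and -0.45) 2598 bases apart. Bhlhe40 overlaps the noncoding RNA gene 0610040F04Rik by 306 bases (-1.01 and -0.50). Reads in such overlaps may count for either gene, so the smaller change of such a pair is uncertain. Further pairs, which overlap as well, were Col4a1 with Col4a2 (by 85 bases), Cpt1b with Gm44502 (9458) and Pim1 with Gm26885 (760). Ciart overlaps C920021L13Rik by 3758 bases; that gene was called (-0.54 ± 0.09, limma adjusted p = 0.0280), while Ciart itself was not.

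Promoter motifs were counted on both strands of the 300-base windows, which the table gave for 8211 of the 10679 genes, 48 of the 70 higher and 29 of the 44 lower. An RRE (TAGGTCA or TGGGTCA) stood in 9 of 48 higher genes (18.8%), 0 of 29 lower genes and 498 of all genes (6.07%). The 9 include Nfil3, 12 bases before a listed start inside the gene, Arntl, 31 bases after one of 2 listed starts, and Chchd10. An E-box (CACGTG) stood in 11 of 48 (22.9%) and 9 of 29 (31.0%) against 12.5% of all genes, among the lower ones Per1, Tef, Tspan4, Coq10b, Ptgs2 and Pfkfb3. A D-box (TTATGNAA) stood in 2 of 48 and 3 of 29 (Per1, Per3 and Coq10b) against 2.25%, and a CRE (TGACGTCA) in none of either set against 3.70%. Among genes not called, Cry1 held 1 E-box, Bhlhe41 held 1 and Ciart held 3. A match is a run of letters and does not show that a factor binds.

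Exon RNA of the same cultures was set beside synthesis. Total exon RPKM passed the test in 256 of 10881 genes (2.35%; 1.16% higher and 1.19% lower) and 4sU exon RPKM in 305 of 10983 (2.78%; 1.3% and 1.48%). The count for total RNA was 158 without 26 h, 131 without 34 h and 114 without 46 h. Total Arntl was at 15.6 ± 0.955 RPKM (SD, n = 4) at 32 to 38 h and 2.69 ± 1.21 in the other window, a difference of 2.61 ± 0.14 (limma adjusted p = 3.08e-07) beside 1.96 in introns. Dbp was at -2.70 beside -2.38, Nfil3 at 2.07 beside 1.82, Tef at -2.0 beside -1.95, Per2 at -1.75 beside -1.88 and Per3 at -1.54 beside -1.59. Tested within cultures, the intron minus total exon difference was -0.65 for Arntl (limma adjusted p = 0.131), and it was not called for any of these 6 genes (0.131 to 0.879).

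The next 3 genes, all repressors, were not called in introns. Total exon RPKM fell by 1.22 ± 0.15 for Ciart (limma adjusted p = 0.000530) and by 0.83 ± 0.12 for Bhlhe41 (0.00251), and neither differed from its intron value by the test within cultures (limma adjusted p of 0.382 and 0.935). Nr1d1 had a total exon difference of -1.87 ± 0.35 (limma adjusted p = 0.0632) and a 4sU exon difference of -1.95 ± 0.34 (0.0369), against -0.42 in introns. Clock, not called in introns, was called in total exons (0.41 ± 0.09, limma adjusted p = 0.0253) and in 4sU exons (0.41 ± 0.10, 0.0394). The total exon call was lost without the time term (0.198) and without the 24, 34, 38 or 46 h library (limma adjusted p of 0.0669 to 0.145).

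For the collagens the exon differences were the smaller ones. Beside intron differences of 0.60, 0.61 and 0.41, total exon RNA of Col4a1, Col4a2 and Col1a1 differed by 0.19 ± 0.08, 0.11 ± 0.09 and -0.01 ± 0.07 (limma adjusted p of 0.283, 0.620 and 0.985). Their 4sU exon differences were 0.29, 0.21 and 0.15. The differences between the intron and the total exon contrast, tested within cultures, were not called for these genes (limma adjusted p of 0.376, 0.376 and 0.220). That test called 2 of 10440 genes (0.0192%; 1071 at an unadjusted p under 0.05), Nr1d1 (1.45 ± 0.14, 0.0221) and Lars2, a mitochondrial tRNA synthetase gene (0.81 ± 0.09, 0.0418). Lars2 introns were at 0.00 ± 0.07, its total exons fell by 0.81 ± 0.08 (limma adjusted p = 9.59e-05) and its 4sU exons rose by 0.41 ± 0.10 (0.0461). Nr1d1 lost its call without any 1 of 7 cultures, the exception being 38 h, and Lars2 lost it without any 1 of the 8.

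**Figure D4:**
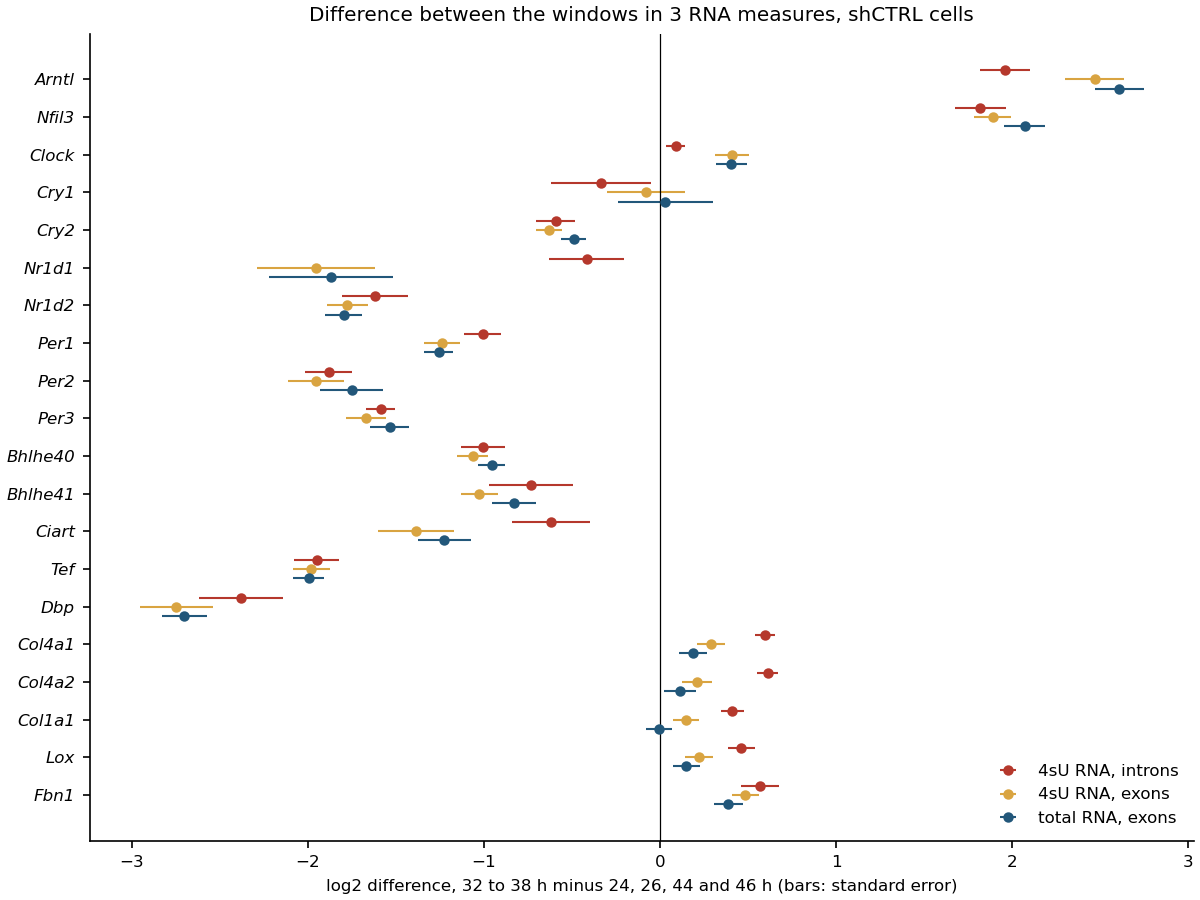
Log2 difference between the windows (x axis, bars ± SE of the limma fit) in 4sU introns, 4sU exons and total exons for 15 clock genes and 5 matrix genes of shCTRL cells (rows). The 3 measures lie together for Per1, Per2, Per3, Tef and Nr1d2, the intron point is nearer 0 for Nr1d1 and Ciart, and it lies to the right of the exon points for the collagens.

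In the shBmal1 line the same windows were compared in a fit of 16 libraries. Neither Arntl nor Nfil3 passed the test there, and both differed from the control line. Arntl introns were at 0.497, 0.635, 0.862 and 1.21 at 24, 26, 44 and 46 h and 0.907, 0.994, 0.854 and 0.80 at 32, 34, 36 and 38 h (0.22 ± 0.15, limma adjusted p = 0.961). The shBmal1 minus shCTRL difference was -1.73 ± 0.21 (limma adjusted p = 0.00555). Nfil3 was at 0.706, 0.591, 0.839 and 1.81 against 1.05, 0.740, 0.810 and 1.01, with overlapping windows (0.00 ± 0.20), and differed from shCTRL by -1.81 ± 0.28 (limma adjusted p = 0.0447).

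Tef and Mmp11 were the other 2 of 4 genes whose contrast differed between the lines (0.038% of 10529, with 0.0095% positive and 0.0285% negative; 529 at an unadjusted p under 0.05). Tef was at 1.99, 1.67, 1.15 and 1.07 against 0.936, 0.844, 0.899 and 0.852 in shBmal1, a smaller fall (-0.67 ± 0.11) than in shCTRL (difference 1.27 ± 0.16, limma adjusted p = 0.00555). Mmp11 was at 4.22, 4.63, 6.27 and 6.65 against 5.88, 4.79, 5.85 and 5.77 (0.06 ± 0.09), with a difference of -1.0 ± 0.13 (0.00555). The count of 4 was 7 without the 26 h and 10 without the 44 h library of shBmal1. Nfil3 lost its call without any 1 of 11 of the 16 libraries (adjusted p up to 0.202), and the other 3 kept theirs in each.

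The differences between the lines of Per2 (1.25 ± 0.22), Spon2 (-1.28 ± 0.23), Saa3 (-0.90 ± 0.15) and Col4a1 (-0.53 ± 0.09) came near the threshold, with limma adjusted p of 0.0747, 0.0747, 0.0747 and 0.0711. The 114 calls in shCTRL came from a fit of 8 libraries, so the calls in shBmal1 cannot be counted against them. In the fit of 16 libraries 1 gene of 10529 was called in shBmal1 (0.0095%, with 477 at an unadjusted p under 0.05), Per3. It had 0.427, 0.361, 0.227 and 0.30 against 0.187, 0.206, 0.150 and 0.162 (-0.80 ± 0.11, limma adjusted p = 0.0414), with windows that did not overlap. Nr1d2 was at -1.06 ± 0.16 (0.0519) in that line, and Dbp at -0.74 ± 0.25 (0.961). Whether Per3, Nr1d2 and Dbp differed between the lines was not settled by the test (limma adjusted p of 0.217, 0.866 and 0.309).

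**Figure D5:**
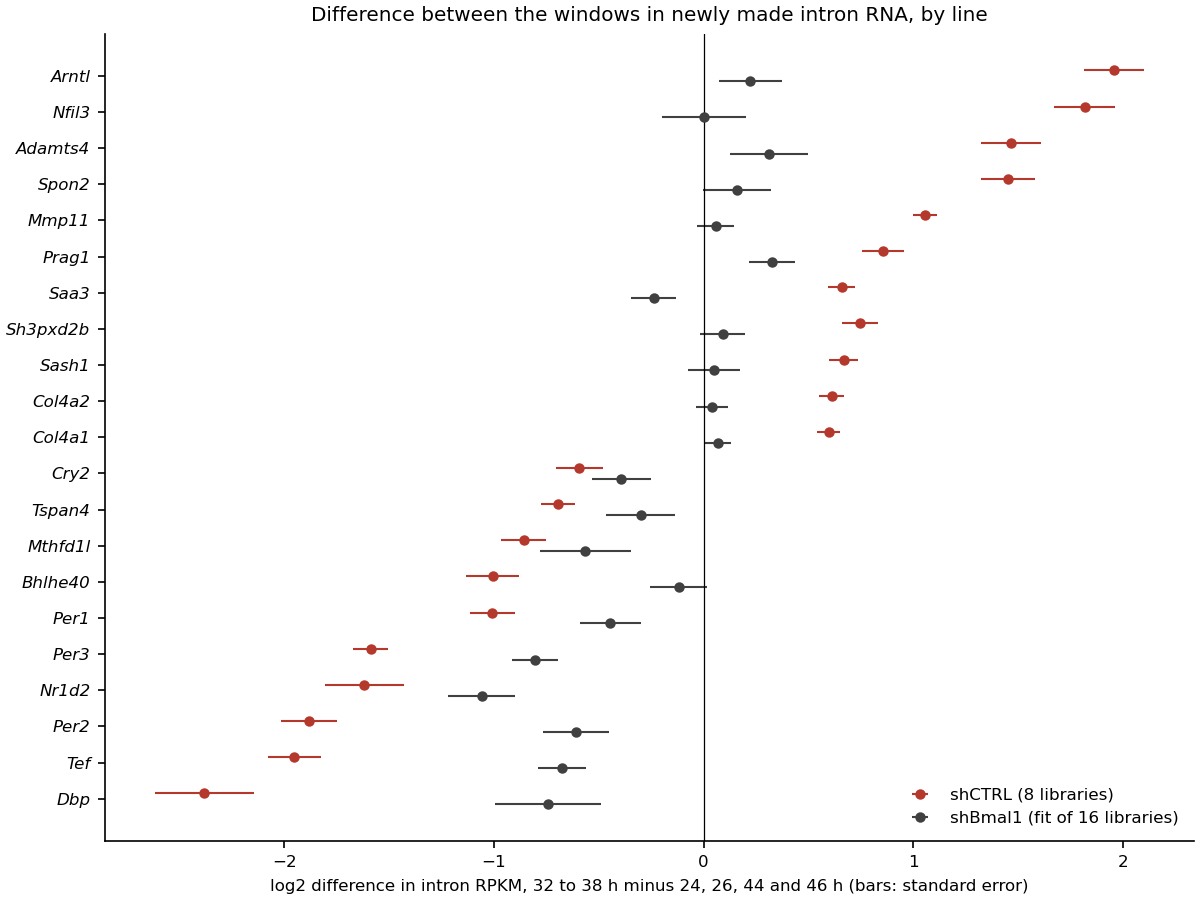
Log2 difference in intron RPKM between the windows (x axis, bars ± SE of the limma fit) in shCTRL (red) and shBmal1 (dark) for 21 genes (rows). The shBmal1 points lie nearer 0 than the shCTRL points in each row shown, and those of Nr1d2 (-1.06) and Per3 (-0.80) lie furthest from 0. All 21 genes were called in shCTRL, so the choice of genes by itself favours larger shCTRL values. The limma test between lines called 4 of 10529 genes.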

How the data were processed

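The authors deposited exon and intron RPKM for 11313 symbols in 48 libraries. Per the submitters' processing notes, Trim Galore and HOMER 4.11.1 were run on the mm10 build (GRCm38.p6), with an aligner not given in the sources used here. Per the labels' protocols, libraries were strand-specific, paired-end and depleted of ribosomal RNA. Library totals were recovered from the RPKM steps (low values whole within 0.02 reads). RPKM were scaled by median ratios and tested as log2(RPKM + 0.02) for introns and log2(RPKM + 0.1) for exons. Genes with a mean of at least 0.1 intron or 0.5 exon RPKM were fitted with limma 3.58.1 in R 4.3.3, with trend and robust variance, a window term and time as a straight line. The Benjamini-Hochberg adjustment covered all genes tested, at a threshold of 0.05. Contrasts between lines used 16 libraries with a time line each.

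The members, windows and 30 gene lists were chosen with earlier results of these data known. The text names every clock gene, the 12 highest and 12 lowest called genes with windows that do not overlap, and up to 4 called genes per other list (or that of smallest adjusted p). Simulated data with 8 libraries and 10637 genes gave calls for 30.3% of genes changed by 0.3 on the log2 scale. The share was 78.5% at 0.6 and 95.4% at 1, and 8 of 141 calls were false. The simulated noise was independent between genes and libraries, without drift, so these shares may not hold for the real calls. Alternatives were other pseudocounts, filters, scaling, time terms, subsets of time points, variance models and leaving out each library. Spike-ins and total introns were not analysed here. A few genes and 1 gene list are not reported here.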

Additional observations from a re-analysis of the deposited data

Results flagged for a closer look

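In 4 genes the difference between the windows differed between the lines by limma's interaction test. The shBmal1 minus shCTRL values were -1.73 for Arntl, -1.81 for Nfil3, 1.27 for Tef and -1.0 for Mmp11 on the log2 scale. The direction was the same in every alternative run, and without a time term none of the 4 passed.

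In a few of 132 groups of 4 libraries, 1 library stood far from the other 3 by Dixon's ratio of gap to range at its 95% critical value. Chance gives about 1 such group in 20, and 6 were found. The 44 h library was low for Cry2 (0.838), the 34 h library low for Bhlhe40 (0.873) and the 26 h library high for Sash1 (0.899). The 38 h library was low for Prag1 (0.894) and Mcm5 (0.830) and high for Csnk1a1 (0.891).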

How the results depend on the processing

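No paired analysis was possible because, between the windows, no time point is shared and the labels give no replicate numbers. Introns minus total exons were taken within cultures, and the time points that both lines share were not used as a block. Of the 114 genes called, 6 kept the call in all 19 alternatives, among them Arntl, Nfil3, Tef, Per1 and Per3. The count was 63 (40 higher, 23 lower) without a time term, 10 (3 and 7) for 24 and 46 h against 34 and 36 h, and 36 (28 and 8) against 44 and 46 h alone. On the RPKM as deposited 71 were lower. Leaving out 1 library gave 41 to 100 genes, 23 to 66 higher and 11 to 36 lower. Total exon RNA gave 96 without a time term and 114 to 330 without 1 library. The contrast between lines gave 0 without a time term and 3 to 10 without 1 library. Introns minus total exons gave 8 and 1 genes with pseudocounts of 0.1 and 0.005, 0 with no filter, 1 as deposited, 1 without a time term and 0 to 1 without 1 culture. Without a time term 11 named genes lost the call, with adjusted p of 0.0586 to 0.487: Cry2, Pfkfb3, Gm5069, Chchd10, Fbn1, Lox, Col1a1, Rpl30, Saa3, Tlr2 and C3. In total exons Per2, Spon2, Mmp11 and Clock lost it (0.0777 to 0.308). The cause was not tested.

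Genes whose sign turned were near 0 or drifted. Against 24 and 26 h alone Arntl2 was -0.037, Rora 0.037, Cdc20 -0.22, Cd68 -0.185 and Nampt 0.013. Against 44 and 46 h alone Cry1 was 0.24, C3 -0.065, Krt14 0.37 and Btrc -0.0082. Cd68 was -0.0055 as deposited. Without 1 library Arntl2 went from -0.0074 to 0.14, Cd68 from -0.084 to 0.15 and Krt14 from -0.37 to 0.038. Low intron reads (under 50 in some libraries for, among others, Bhlhe41, Ciart, Adamts4, Chchd10 and Gm5069) limit those genes.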
